A study of Mus musculus with 6 samples.

Results

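Neutrophils from the bone marrow of mice 3 weeks after injection of LL2 cells were compared with neutrophils of naive mice, across every gene with enough reads to be tested. Of the 38887 genes in the count table, 12259 passed the filter on low counts, 10960 of them protein-coding, and these are the genes described. LL2 is a luciferase-expressing subline of Lewis lung carcinoma, a mouse lung tumor line, which the study injected intravenously so that tumors formed in the lungs. The comparison asks how bone marrow neutrophils differ once these tumors are advanced. The cells were positive for Ly6G, the surface antigen used to select them with magnetic beads, at a stated purity of over 95%. Their total RNA was sequenced. The naive group had no tumor and no other treatment named in the labels, and the 3-week group was taken 3 weeks after injection. A group taken at 1 week entered the model for its estimate of the spread. Each group has 2 libraries, numbered as replicate mice in the labels, which give neither strain, sex nor age. p-values therefore rest on the spread between 2 libraries per group.

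Neutrophils are made in the bone marrow, where precursors fill their granules in a fixed order. Primary granules, with myeloperoxidase and the serine proteases, are made in the earliest precursors. Secondary granules with lactoferrin come next, and tertiary granules with gelatinase come last, after division has stopped. Growing tumors release cytokines such as G-CSF and GM-CSF that act on this lineage. Neutrophils that can suppress T cells in tumor-bearing hosts are called polymorphonuclear myeloid-derived suppressor cells (PMN-MDSC).

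The libraries held between 11994158 and 14127919 counts. Levels are given as CPM, counts per 1000000 of the library total after scaling by the trimmed mean of M-values (TMM), with naive replicates 1 and 2 before 3-week replicates 1 and 2. A level of 3 counts, the smallest treated as detected, amounted to between 0.200 and 0.245 CPM, a floor that covers counting error only. Genes that define neutrophils were abundant in all 4 libraries. S100a8, a subunit of calprotectin, was not called, with 166394 and 188846 CPM in the naive and 228488 and 214205 CPM in the 3-week libraries (adjusted p = 0.0737). S100a9, its partner, did not pass the test, with 62886 and 73515 CPM in the naive and 74926 and 72240.2 CPM in the 3-week libraries (adjusted p = 0.562). Csf3r, the G-CSF receptor, was not called, at 696 and 735 CPM in the naive and 775 and 1035 CPM in the 3-week libraries (adjusted p = 0.104). Itgam, the integrin chain CD11b, was not called, with 397 and 317 CPM in the naive and 375 and 421 CPM in the 3-week libraries (adjusted p = 0.445). Ly6g, the gene of the antigen used for selection, had very few counts in every library (1.11 and 0.491 CPM in the naive and 1.24 and 0.922 CPM in the 3-week libraries), so it could not serve as a check of the label.

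Of the 15 identity genes 3 were higher, 4 lower and 8 not called, against 12.0% higher and 9.42% lower of all tested genes. The falls, of Camp, Ngp, Ltf and Cebpe, and the rise of Cxcr2 are given with their families below. Wfdc21, a secreted WAP-domain protein, climbed from 1855 and 2127 to 3425 and 2695 CPM (log2 fold change 0.62, adjusted p = 0.00467). Retnlg, a resistin-like protein, rose from 5614 and 5465 to 7454 and 7529 CPM (log2 fold change 0.44, adjusted p = 0.0135). Wfdc21 could no longer be called without naive replicate 1 (adjusted p = 0.0724). Retnlg fell short of the threshold without naive replicate 1, naive replicate 2 or 3-week replicate 2 (adjusted p up to 0.059). Retnlg was also not called with library-size scaling, and without naive replicate 1 there were 0 identity genes called higher. Since the RNA is from bulk cells, fewer cells of a type and less RNA per cell cannot be told apart in any value given here.

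At an adjusted p under 0.05, 2626 of the 12259 tested genes (21.4%) differed. Of these, 1471 were higher in the 3-week libraries (12.0%) and 1155 lower (9.42%). These shares are the background for the counts of each gene list below. The lists and their members were chosen with earlier results of these data known, so their counts are descriptions only. Falls over 4-fold were about as many (155) as rises over 4-fold (135). The median change was 1.67-fold among genes called higher and 1.83-fold among genes called lower. The balance of directions depended on the scaling. With library-size scaling, which moved the median log2 fold change of all genes from 0.03 to -0.11, 890 genes were higher and 1675 lower. The share of calls that were higher thus went from 56.0% to 34.7%. The shift, -0.15 on the log2 scale, is smaller than the changes of most genes named here, which are given under TMM scaling. Leaving out naive replicate 1 left 1372 calls and leaving out 3-week replicate 1 left 1731.

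**Figure D1:**
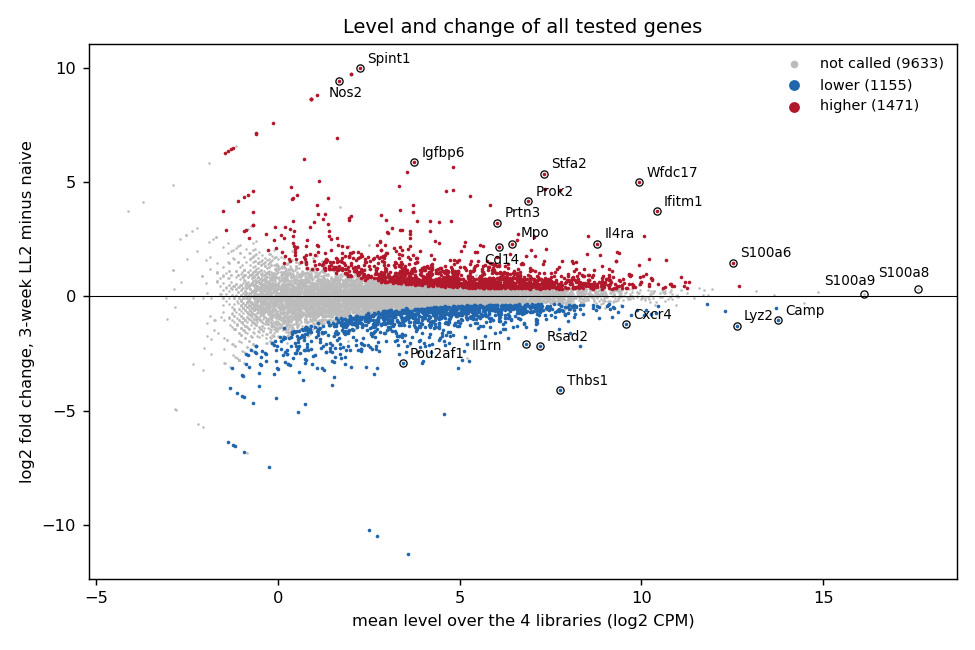
Each point is a tested gene, with its mean level over the 2 naive and 2 3-week libraries in log2 CPM on the x axis and its log2 fold change, 3-week minus naive, on the y axis, where red marks the 1471 genes called higher, blue the 1155 called lower and grey the rest, and named genes are circled. The abundant S100a8 and S100a9 lie near 0, Wfdc17 and Ifitm1 combine a high level with a large rise, and for genes at 0 in a group, such as Spint1 and Nos2, the plotted value depends on the prior count of the fit and is no bound.

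The largest rises included genes of secreted proteins, enzymes and protease inhibitors. Spint1 (ENSMUSG00000027315, chr2:119237362-119249527 of GRCm38) encodes a membrane-anchored Kunitz inhibitor of serine proteases. It had 0 counts in both naive libraries and 11.4 and 7.68 CPM in the 3-week libraries, at least 39.5-fold higher (adjusted p = 1.26e-05). Nos2 (chr11:78920787-78960254), the inducible nitric oxide synthase, likewise went from 0 counts to 7.59 and 5.302 CPM, at least 26.7-fold higher (adjusted p = 4.03e-05). Both genes also had 0 counts in the 1-week libraries. Ambp, the precursor of the protease inhibitor bikunin, had 0 and 1 count in the naive libraries and 6.35 and 5.84 CPM in the 3-week libraries (adjusted p = 1.58e-05). Igfbp6, an insulin-like growth factor binding protein, rose from 0.0791 and 0.818 to 26.7 and 26.5 CPM (log2 fold change 5.88, SE 0.41, adjusted p = 1.24e-06). Lipg, endothelial lipase, increased from 0.632 and 1.55 to 72.3 and 38.3 CPM (log2 fold change 5.66, SE 0.39, adjusted p = 1.12e-06). In Spint1, Nos2 and Ambp both naive libraries lay below the floor. Naive replicate 2 of Igfbp6 and both naive libraries of Lipg lay above it, at up to 1.55 CPM. The 3-week libraries of all these genes lay well above the floor. Igfbp6 had a log2 fold change of 4.97 without naive replicate 1. Igfbp6 and Lipg had log2 fold changes of 8.23 and 6.43 without naive replicate 2.

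Abundant genes were also among the largest rises. Wfdc17, a small secreted WAP-domain protein, rose from 34.3 and 85.9 to 2060.1 and 1746 CPM (log2 fold change 4.99, SE 0.36, adjusted p = 1.40e-06). Ifitm1, an interferon-inducible membrane protein, climbed from 138 and 249 to 2785 and 2322 CPM (log2 fold change 3.72, SE 0.27, adjusted p = 1.64e-06). The interferon list described further on moved the other way. Prok2, prokineticin 2 or Bv8, a myeloid peptide that acts on vessels and myeloid cells, rose from 13.8 and 11.04 to 258 and 191 CPM (log2 fold change 4.18, SE 0.18, adjusted p = 4.13e-08). The 1-week libraries lay below both 3-week libraries in all 3 genes, at 29.3 and 51.6 CPM for Wfdc17, 119 and 199 CPM for Ifitm1 and 8.33 and 8.42 CPM for Prok2. Wfdc17 had a log2 fold change of 5.79 without naive replicate 2.

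Enzymes of the cell surface and the secretory pathway followed. Fam20c, a kinase of secreted proteins, rose from 0.949 and 3.35 to 63.2 and 45.6 CPM (log2 fold change 4.67, adjusted p = 1.40e-06). Steap4, a metalloreductase, increased from 0.949 and 2.94 to 47.2 and 48.3 CPM (log2 fold change 4.62, adjusted p = 6.39e-07). Entpd3, an ectonucleotidase, rose from 1.74 and 5.32 to 84.5 and 64.1 CPM (log2 fold change 4.40, adjusted p = 1.24e-06). Ggt1, gamma-glutamyltransferase, climbed from 5.53 and 7.77 to 143 and 70.1 CPM (log2 fold change 4.003, adjusted p = 1.84e-06). Smaller levels with like rises were found for Galnt6, which starts O-linked glycans (log2 fold change 3.69), and Gpld1, a phospholipase that cleaves GPI anchors (3.58). The adhesion molecule Nectin2 (3.50), the magnesium transporter Cnnm2 (3.36), Adamtsl4 (3.34) and Fignl2 (4.82) also belong to the 25 largest rises. The others are 0610040J01Rik, 2010005H15Rik, F11r, Ecm1 and the stefins. In each of the 25, both 3-week libraries lay above both naive libraries, as the rule for naming them required. Fam20c, Steap4, Entpd3 and Gpld1 had log2 fold changes of 3.98, 3.98, 3.77 and 2.70 without naive replicate 1 and 5.83, 5.64, 5.41 and 5.74 without naive replicate 2. Ggt1 and Nectin2 had log2 fold changes of 3.40 and 2.85 without 3-week replicate 1.

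The 25 largest falls among protein-coding genes included Thbs1 and several genes of B cells. Thbs1, thrombospondin-1, an adhesive glycoprotein that inhibits angiogenesis, fell from 519 and 295 to 27.2 and 19.98 CPM (log2 fold change -4.11, SE 0.25, adjusted p = 3.91e-07). Its 1-week level was 417 and 349.8 CPM. Vpreb3, which assists the pre-B cell receptor, fell from 6.799 and 4.01 to 0.542 and 0.384 CPM (log2 fold change -3.52, adjusted p = 0.000126). Vpreb1, a surrogate light chain gene that lies within Top3b, decreased from 8.06 and 2.21 to 0.61996 and 0.768 CPM (log2 fold change -2.87, adjusted p = 0.00367). Vpreb1 lost the call without naive replicate 1 (adjusted p = 0.0799). Mzb1, a chaperone of B and plasma cells, fell from 8.54 and 14.1 to 1.16 and 0.999 CPM (log2 fold change -3.37, adjusted p = 1.58e-05). Spib, an Ets factor of B cells and plasmacytoid dendritic cells, dropped from 11.9 and 12.02 to 1.63 and 1.08 CPM (log2 fold change -3.14, adjusted p = 3.90e-06). Pou2af1, a B cell coactivator, fell from 18.6 and 19.7 to 2.56 and 2.46 CPM (log2 fold change -2.93, adjusted p = 1.40e-06). Acta2, smooth muscle actin, fell from 51.5 and 65.8 to 10.3 and 12.3 CPM (log2 fold change -2.38, adjusted p = 1.12e-06). Vpreb1 had a log2 fold change of -1.69 without naive replicate 1 and -3.52 without naive replicate 2.

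Genes of varied function made up the remainder of the 25 falls. The ubiquitin ligase gene Neurl1b went from 29.6 and 25.4 to 4.57 and 2.77 CPM and the small GTPase gene Rasl11b from 82.7 and 52.1 to 8.45 and 10.3 CPM. Dmwd went from 31.6 and 23.96 to 4.18 and 3.69 CPM. Bhmt2, a methyltransferase of the methionine cycle, went from 25.8 and 36.6 to 5.42 and 6.22 CPM. Ly6d, a surface protein of early B cells, went from 19.2 and 29.4 to 5.11 and 3.76 CPM. Log2 fold changes were -3.87 for Rasgef1a, -3.08 for Eps8l1, -2.78 for the class Ib histocompatibility gene H2-Q7 and -2.70 for the enkephalin precursor Penk. They were -2.67 for lactase (Lct), -2.64 for Fnbp1l, -2.51 for Ifit3b, -2.50 for Tmem45a2, -2.43 for Tex15 and -2.35 for Aldh3b3. Eps8l1 and Ifit3b had log2 fold changes of -4.92 and -1.78 without 3-week replicate 1 and -2.29 and -4.08 without 3-week replicate 2.

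Adnp and Ugt1a5, also among the 25, cannot be read as changes of the group. Adnp had 26.6 and 0.0818 CPM in the naive libraries and 0 counts in the 3-week libraries, so that its call rested on 1 library. Adnp could no longer be called without naive replicate 1, 3-week replicate 1 or 3-week replicate 2 (adjusted p up to 0.743). Ugt1a5 shares exons with the other Ugt1a genes and had 85.3 and 26.7 CPM in the naive and 12.6 and 0 CPM in the 3-week libraries. Ugt1a5 fell short of the threshold without naive replicate 1 (adjusted p = 0.209). Among the genes with the smallest p were also the actin-binding Lima1 and 3 non-coding or predicted genes. Lima1 decreased from 76.6 and 82.8 to 23.2 and 25.4 CPM (log2 fold change -1.72, adjusted p = 1.84e-06). Slmapos2 fell from 198 and 198 to 73.4 and 69.1 CPM (log2 fold change -1.48, adjusted p = 1.84e-06). Gm13167 dropped from 52.9 and 40.2 to 1.16 and 1.46 CPM (log2 fold change -5.14, adjusted p = 4.49e-07). Gm14176 had 24.5 and 22.8 CPM in the naive libraries and 0 counts in the 3-week libraries, at least 102-fold lower. Gm14176 also had 0 counts in both 1-week libraries, and Gm13167 was low at 1 week (1.73 and 4.02 CPM).

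Granule genes split by granule type. Of the 9 tested genes of primary granules 8 were higher and 0 lower, with a median log2 fold change of 1.35 against 0.03 for all tested genes. Secondary granule genes had 4 higher and 5 lower of 15 (median 0.05). Tertiary granule and secretory vesicle genes had 1 higher and 1 lower of 12 (median 0.11), against 12.0% higher and 9.42% lower of all tested genes. With library-size scaling the last 2 medians became -0.09 and -0.04.

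In the primary granule list, Prtn3, Ctsg, Elane and Mpo rose most. Mpo, myeloperoxidase, which makes hypochlorous acid, rose from 34.9 and 23.3 to 119 and 167 CPM (log2 fold change 2.30, SE 0.24, adjusted p = 2.73e-05). Prtn3, proteinase 3, whose gene model overlaps Plppr3, rose from 10.4 and 14.8 to 99.7 and 136 CPM (log2 fold change 3.23, SE 0.26, adjusted p = 3.52e-06). Elane, neutrophil elastase, increased from 2.69 and 1.64 to 10.2 and 13.4 CPM (log2 fold change 2.44, SE 0.38, adjusted p = 0.000558). Ctsg, cathepsin G, rose from 2.69 and 2.13 to 13.6 and 22.7 CPM (log2 fold change 2.91, SE 0.31, adjusted p = 3.58e-05). In each of these 4, the 3-week libraries lay above all naive and 1-week libraries. Summed over the 4, the level was 50.6 and 41.9 CPM in the naive, 48.3 and 84.9 CPM in the 1-week and 243 and 339 CPM in the 3-week libraries. Ctsc, the cathepsin that activates these proteases, climbed from 25.3 and 31.6 to 82.9 and 61.4 CPM (log2 fold change 1.34, adjusted p = 9.99e-05). Ms4a3, a membrane protein of granulocyte and monocyte precursors, rose from 5.93 and 5.32 to 13.7 and 14.9 CPM (log2 fold change 1.35, adjusted p = 0.000409). Srgn, the proteoglycan that packs granule proteins, and Prss57, a further serine protease, rose by less (log2 fold changes 0.57 and 0.67). These last 2 were named after their values were seen, to complete the list. Prss57 lost the call without naive replicate 1 or 3-week replicate 2 (adjusted p up to 0.183). Prss57 was also not called with library-size scaling.

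The 250 bases before the transcription starts of these genes were read from RefSeq (GRCm38.p6). The letters GAGGAAGT, a form of the site bound by PU.1, the Ets factor of the myeloid lineage, were searched on both strands. They were present in 4 of the 9 primary granule genes with a promoter entry (Mpo, Prtn3, Elane and Ctsc). Of the tested genes with an entry 3.35% held them, of those called higher 3.79%, and of all 27025 genes 2.79%. Matches began at position -95 in Prtn3, -85 in Elane and -224 in Mpo, counted from the start. The windows of these 3 genes are shown because they carry the largest rises of the list together with Ctsg. They are chr10:79879417-79879666 for Prtn3, chr10:79886062-79886311 for Elane and chr11:87793534-87793783 for Mpo, all on the plus strand, with the match in capitals.
Prtn3: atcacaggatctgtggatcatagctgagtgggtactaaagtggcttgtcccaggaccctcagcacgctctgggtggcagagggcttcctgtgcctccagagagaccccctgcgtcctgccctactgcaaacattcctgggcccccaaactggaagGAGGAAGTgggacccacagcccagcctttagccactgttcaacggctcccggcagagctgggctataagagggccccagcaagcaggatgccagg
Elane: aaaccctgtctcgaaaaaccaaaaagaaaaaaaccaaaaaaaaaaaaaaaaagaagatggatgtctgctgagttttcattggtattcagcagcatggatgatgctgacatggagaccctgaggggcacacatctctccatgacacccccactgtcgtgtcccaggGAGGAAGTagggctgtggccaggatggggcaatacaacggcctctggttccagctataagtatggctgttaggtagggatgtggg
Mpo: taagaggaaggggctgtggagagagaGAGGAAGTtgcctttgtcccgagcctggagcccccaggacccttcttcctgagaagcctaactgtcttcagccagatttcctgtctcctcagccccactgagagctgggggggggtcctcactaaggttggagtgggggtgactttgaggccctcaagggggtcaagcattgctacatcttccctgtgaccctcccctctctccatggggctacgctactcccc
A match is a description of the letters and not of binding. The pattern was 1 of 12 searched after the values were seen, and 2 of 14 secondary granule genes with a promoter entry held it, neither of them called.

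Among secondary granule genes, Camp, Ngp, Ltf, Lyz2 and Chil3 were lower. Camp, the cathelicidin, fell from 17013 and 19917 to 8093 and 9926 CPM (log2 fold change -1.04, SE 0.14, adjusted p = 0.000173). Ngp, a cathelicidin-like granule protein, decreased from 14744 and 16652 to 9979.7 and 12103 CPM (log2 fold change -0.51, SE 0.13, adjusted p = 0.0116). Ltf, lactoferrin, fell from 6011 and 6264 to 3666 and 4227 CPM (log2 fold change -0.64, SE 0.12, adjusted p = 0.00194). Lyz2, lysozyme, dropped from 7861 and 10015 to 3202 and 4187 CPM (log2 fold change -1.27, SE 0.15, adjusted p = 6.62e-05). Chil3, a chitinase-like protein, fell from 1463 and 1649 to 866 and 934 CPM (log2 fold change -0.79, SE 0.12, adjusted p = 0.000453). In all 5 both 3-week libraries lay below both naive libraries. Ngp could no longer be called without naive replicate 2 or 3-week replicate 1 (adjusted p up to 0.095). Lcn2, lipocalin 2, which binds bacterial siderophores, was not called, with 3029 and 4067 CPM in the naive and 3764 and 3577 CPM in the 3-week libraries (adjusted p = 0.846), and its libraries overlapped. The members that rose were Anxa1, Pglyrp1, Ceacam10 and Hp. Anxa1, annexin A1, an anti-inflammatory protein, increased from 311 and 324 to 948 and 925 CPM (log2 fold change 1.56, adjusted p = 5.31e-05). Pglyrp1, which binds peptidoglycan, rose from 81.03 and 108 to 197 and 191 CPM (log2 fold change 1.04, adjusted p = 0.000265). Ceacam10, a secreted adhesion-family protein, climbed from 61.9 and 65.8 to 117 and 111 CPM (log2 fold change 0.84, adjusted p = 0.000281). Hp, haptoglobin, rose from 804 and 1081 to 1610.4 and 1473 CPM (log2 fold change 0.71, adjusted p = 0.00259). Summed over the list, the level was 56960.0 and 66370.0 CPM in the naive libraries and 38970.0 and 43640.0 CPM in the 3-week libraries.

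Few tertiary granule genes were called. Mmp9, the gelatinase, was not called, at 7807 and 9099.6 CPM in the naive and 10483 and 9319 CPM in the 3-week libraries (adjusted p = 0.201). Slc11a1, a metal transporter of the phagosome, increased from 38.4 and 44.2 to 81.7 and 60.5 CPM (log2 fold change 0.78, adjusted p = 0.00358). Slc11a1 fell short of the threshold without naive replicate 1 (adjusted p = 0.0668). Fcnb, ficolin B, fell from 67.1 and 78.3 to 30.5 and 36.3 CPM (log2 fold change -1.12, adjusted p = 9.12e-05).

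**Figure D2:**
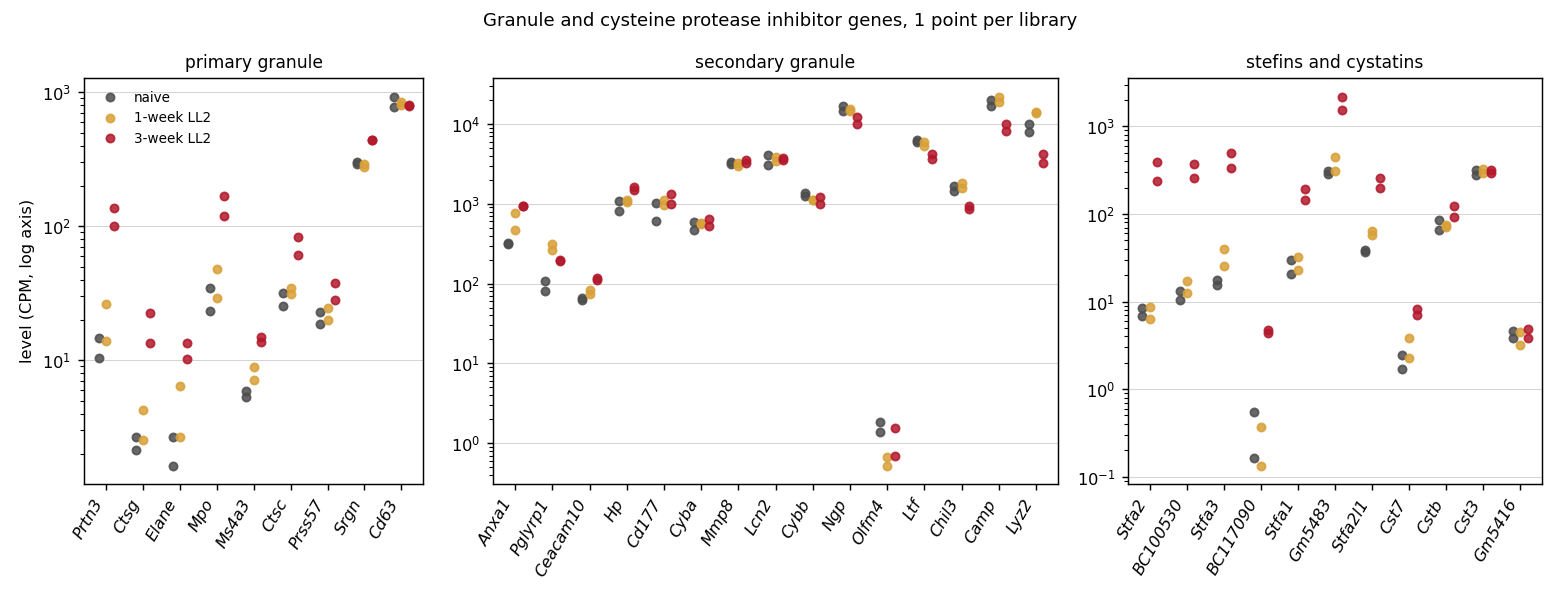
Level in CPM on a log axis of every tested gene of the primary granule, secondary granule and stefin lists, ordered by log2 fold change, with 1 point for each of the 2 libraries of naive (grey), 1-week (gold) and 3-week (red) mice. The 3-week points of Mpo, Prtn3, Elane and Ctsg lie above all others of the same gene, those of Camp, Ngp, Ltf, Lyz2 and Chil3 lie below, and those of Stfa2, BC100530 and Stfa3 lie well above the others of the same gene.

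Stefins, small cytosolic inhibitors of cysteine proteases, were the family that rose most among the lists. The list was drawn up with earlier results of these data known, so this rank is a description only. Of 11 tested stefin and cystatin genes 9 were higher and 0 lower, with a median log2 fold change of 2.66. The shares over all tested genes were 12.0% higher and 9.42% lower. Stfa2 climbed from 8.38 and 6.79 to 389 and 238 CPM (log2 fold change 5.37, SE 0.25, adjusted p = 4.13e-08). Stfa3 rose from 17.7 and 15.5 to 498 and 331 CPM (log2 fold change 4.64, SE 0.23, adjusted p = 1.10e-07). BC100530 rose from 13.2 and 10.5 to 369.8 and 255 CPM (log2 fold change 4.72, SE 0.21, adjusted p = 4.13e-08). Stfa1 increased from 30.1 and 20.7 to 191 and 145 CPM (log2 fold change 2.72, adjusted p = 1.84e-06). Stfa2l1 rose from 38.8 and 37.05 to 256 and 200.2 CPM (log2 fold change 2.59, adjusted p = 2.72e-07). Gm5483 climbed from 306 and 283 to 2172 and 1541 CPM (log2 fold change 2.66, adjusted p = 1.25e-06). All of them lie on chromosome 16 between chr16:36156811-36161953 and chr16:36450537-36455392, as does 2010005H15Rik. Reads of these near-identical copies can be shared out between them by the estimated counts, so the value of each copy is uncertain. The sum over the 8 stefin A genes was 419 and 378 CPM in the naive, 615 and 441 CPM in the 1-week and 3885 and 2719 CPM in the 3-week libraries. It was 8.29-fold higher at 3 weeks than in the naive libraries. Cstb, stefin B, outside the cluster, rose from 66.01 and 86.04 to 123 and 93.4 CPM (log2 fold change 0.51, adjusted p = 0.033). Cstb lost the call without naive replicate 1, 1-week replicate 1, 1-week replicate 2 or 3-week replicate 1 (adjusted p up to 0.309). Cstb was also not called with library-size scaling.

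S100 and annexin proteins bind calcium and make up much of the neutrophil cytosol. Of 12 tested 4, Anxa1 among them, were higher and 0 lower (median 0.23), against 12.0% and 9.42% of all tested genes. S100a6, calcyclin, rose from 2718 and 3470.3 to 9156 and 8017 CPM (log2 fold change 1.47, SE 0.13, adjusted p = 8.79e-06). Both 3-week libraries of S100a6 lay far above the others. S100a13 increased from 56.4 and 67.1 to 110.2 and 96.7 CPM (log2 fold change 0.74, adjusted p = 0.00117). S100a1 rose from 7.75 and 8.18 to 14.6 and 14.1 CPM (log2 fold change 0.85, adjusted p = 0.00505). S100a1 could no longer be called without naive replicate 1 (adjusted p = 0.0566).

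Among genes of surface and innate receptors, 34 of 105 tested were higher and 10 lower, against 12.0% and 9.42% of all tested genes. The rises lay mostly in the receptors for cytokines (12 higher and 1 lower of 26, median 0.36) and in the Fc, paired and lymphoid-type receptors (10 higher and 0 lower of 23, median 0.36). Pattern recognition receptors (4 and 4 of 23, median -0.05) and adhesion molecules (2 and 4 of 18, median -0.07) went both ways. The number higher was 21 without naive replicate 1, and the number lower was 16 with library-size scaling.

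Receptors of the type 2 cytokines and of the GM-CSF family were among the cytokine receptors that rose. Il4ra, the chain shared by the receptors of IL-4 and IL-13, climbed from 120.3 and 176 to 820.4 and 644 CPM (log2 fold change 2.30, SE 0.18, adjusted p = 1.91e-06). Il13ra1, its partner, rose from 13.9 and 21.2 to 81.1 and 81.8 CPM (log2 fold change 2.22, SE 0.18, adjusted p = 2.96e-06). Csf2rb, the common beta chain of the receptors of GM-CSF, IL-3 and IL-5, rose from 234 and 323 to 770.1 and 613 CPM (log2 fold change 1.31, SE 0.16, adjusted p = 0.000107). Csf2rb2, its near copy for IL-3, with which reads may be shared, increased from 6.403 and 7.61 to 39.9 and 31.7 CPM (log2 fold change 2.35, SE 0.20, adjusted p = 4.99e-06). In all 4 genes the 1-week libraries lay near or below the naive levels, at 122 and 136 CPM for Il4ra and 237 and 277 CPM for Csf2rb. Of the interleukin 1 receptor chains, Il1r2 and Il1rap rose. Il1r2, the decoy receptor, rose from 559 and 524 to 1302 and 823 CPM (log2 fold change 0.97, SE 0.17, adjusted p = 0.00133). Il1rap, the chain shared by these receptors, climbed from 4.03 and 5.15 to 23.1 and 15.6 CPM (log2 fold change 2.07, SE 0.24, adjusted p = 6.28e-05). Il1r1, the signalling receptor, had 3 counts or fewer in each of the 4 libraries and was not tested. Ifngr1, a chain of the interferon gamma receptor, rose from 86.96 and 81.8 to 227 and 227 CPM (log2 fold change 1.43, SE 0.12, adjusted p = 5.56e-06). Il2rg, the chain shared by the receptors of IL-2 and related cytokines, fell from 16.05 and 15.6 to 9.299 and 6.84 CPM (log2 fold change -0.97, adjusted p = 0.00687), the 1 gene of the list called lower. Il2rg fell short of the threshold without 3-week replicate 2 (adjusted p = 0.0573).

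Chemoattractant receptors had 6 genes higher and 1 lower of 15 (median 0.10, and -0.05 with library-size scaling). Cxcr4, which holds neutrophils in the marrow by binding Cxcl12, decreased from 1032 and 1105 to 366 and 556 CPM (log2 fold change -1.21, SE 0.16, adjusted p = 0.000228). This fall was called with any library left out. Cxcr2, the main chemokine receptor for release and migration, rose from 464 and 563 to 898 and 768 CPM (log2 fold change 0.70, SE 0.14, adjusted p = 0.00288). Cxcr1 climbed from 1.74 and 3.84 to 7.05 and 8.91 CPM (log2 fold change 1.52, adjusted p = 0.00876). Fpr1, a formyl peptide receptor, rose from 146 and 165 to 222 and 207 CPM (log2 fold change 0.47, adjusted p = 0.0113). Fpr2, another of that family, rose from 617 and 717 to 966 and 959 CPM (log2 fold change 0.53, adjusted p = 0.00489). The chemokine receptor gene Ccr1 (log2 fold change 0.61) and the sphingosine phosphate receptor gene S1pr4 (0.44) were higher by small amounts. All 6 rises depended on naive replicate 1. Cxcr2, Fpr2 and Ccr1 lost the call without naive replicate 1 (adjusted p up to 0.0661). Cxcr1 could no longer be called without naive replicate 1 or 3-week replicate 2 (adjusted p up to 0.0959). Fpr1 fell short of the threshold without naive replicate 1 or 3-week replicate 1 (adjusted p up to 0.118). S1pr4 lost the call without naive replicate 1, 1-week replicate 2, 3-week replicate 1 or 3-week replicate 2 (adjusted p up to 0.24). Fpr1 and S1pr4 were also not called with library-size scaling. Cxcr1 had a log2 fold change of 2.19 without naive replicate 2.

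Of the 23 pattern recognition receptors, 15 were not called, and the rises were of Cd14, Tlr4, Tlr1 and Tlr6. Cd14, the co-receptor for lipopolysaccharide, increased from 24.7 and 25.4 to 111 and 111 CPM (log2 fold change 2.14, SE 0.15, adjusted p = 1.24e-06). Tlr4, its signalling partner, rose from 15.9 and 16.9 to 27.3 and 26.6 CPM (log2 fold change 0.71, SE 0.14, adjusted p = 0.00342). Tlr1, a partner of Tlr2, climbed from 0.316 and 0.164 to 4.57 and 3.304 CPM (log2 fold change 3.98, adjusted p = 0.000353). Its naive level rested on 4 and 2 counts. Tlr6, another partner of Tlr2, rose from 11.2 and 12.8 to 22.3 and 21.1 CPM (log2 fold change 0.85, adjusted p = 0.00416). Tlr2 was not called, at 17.2 and 17.5 CPM in the naive and 22.7 and 20.98 CPM in the 3-week libraries (adjusted p = 0.121). Trem1, an amplifying receptor, was not called, with 498 and 545 CPM in the naive and 449 and 464 CPM in the 3-week libraries (adjusted p = 0.257). The 4 called lower were Nod1, Nod2, Olr1 and Tlr5. Nod1, an intracellular receptor of peptidoglycan, fell from 80.8 and 85.7 to 45.6 and 52.3 CPM (log2 fold change -0.77, adjusted p = 0.00118). Nod2, its relative, dropped from 6.403 and 7.61 to 3.18 and 2.84 CPM (log2 fold change -1.22, adjusted p = 0.00429). Olr1, a scavenger receptor for oxidized lipoprotein, fell from 9.09 and 5.23 to 1.39 and 1.84 CPM (log2 fold change -2.14, adjusted p = 0.000623). Tlr5, the flagellin receptor, was lower (log2 fold change -1.21). Tlr6 could no longer be called without naive replicate 1 (adjusted p = 0.0654). Tlr5 fell short of the threshold without naive replicate 1 or 3-week replicate 1 (adjusted p up to 0.348). Tlr5 had a log2 fold change of -1.83 without 3-week replicate 2.

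In the Fc, paired and lymphoid-type list, the largest rises were of receptors best known from lymphocytes. Cd38, an ectoenzyme that consumes NAD, rose from 5.22 and 4.83 to 58.7 and 40.4 CPM (log2 fold change 3.30, SE 0.21, adjusted p = 5.24e-07). Cd244a, the SLAM-family receptor 2B4, increased from 3.48 and 4.66 to 39.4 and 38.6 CPM (log2 fold change 3.26, SE 0.21, adjusted p = 6.46e-07). In both genes the 3-week libraries lay above all others. The inhibitory receptor genes Pirb, Cd33 and Cd300lf were also called higher. Pirb rose from 233 and 275 to 499.6 and 459.7 CPM (log2 fold change 0.92, adjusted p = 0.000169). Cd33 climbed from 161 and 187 to 359.7 and 293 CPM (log2 fold change 0.91, adjusted p = 0.000366). Cd300lf rose from 355 and 415 to 695 and 611 CPM (log2 fold change 0.76, adjusted p = 0.000663). Fcgr4, an activating Fc receptor, rose from 68.1 and 64.6 to 106 and 108 CPM (log2 fold change 0.69, adjusted p = 0.00186). Fcgr3 did not pass the test, with 566 and 544 CPM in the naive and 638 and 717 CPM in the 3-week libraries (adjusted p = 0.0818). Cd274, the checkpoint ligand PD-L1, was not called, at 4.51 and 3.03 CPM in the naive and 3.41 and 6.301 CPM in the 3-week libraries (adjusted p = 0.485), with overlapping libraries. With library-size scaling the list had 8 higher and 2 lower.

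Adhesion molecules of the junctional family moved in opposite directions. F11r, junctional adhesion molecule A, climbed from 1.34 and 1.47 to 24.6 and 13.9 CPM (log2 fold change 3.77, SE 0.32, adjusted p = 4.54e-06). Jaml, a related junctional molecule of leukocytes, fell from 521 and 509 to 73.4 and 153 CPM (log2 fold change -2.19, SE 0.25, adjusted p = 5.57e-05). Selplg, the P-selectin ligand on which neutrophils roll, rose from 466 and 679 to 1141 and 1000.5 CPM (log2 fold change 0.90, adjusted p = 0.00122). Itgb7 decreased from 22.4 and 29.5 to 5.89 and 6.61 CPM (log2 fold change -2.05, adjusted p = 1.55e-05). Itgax, the integrin chain CD11c, fell from 17.7 and 21.2 to 5.89 and 9.37 CPM (log2 fold change -1.35, adjusted p = 0.000614). Icam2 dropped from 10.9 and 10.2 to 6.59 and 5.53 CPM (log2 fold change -0.80, adjusted p = 0.0115). Icam2 lost the call without naive replicate 1 or 3-week replicate 2 (adjusted p up to 0.0769). Itgal, a chain of the integrin LFA-1, was not called, with 172 and 179 CPM in the naive and 152 and 178 CPM in the 3-week libraries (adjusted p = 0.667). Itgb2, the other chain of LFA-1, did not pass the test, with 421 and 435 CPM in the naive and 487 and 443 CPM in the 3-week libraries (adjusted p = 0.505). Jaml had a log2 fold change of -2.81 without 3-week replicate 2.

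Secreted factors had 22 genes higher and 13 lower of 58 tested, against 12.0% and 9.42% of all tested genes. Cytokines and chemokines were split (7 higher and 8 lower of 27, median -0.30). Secreted inhibitors, matrix and plasma proteins had more genes higher than lower (15 higher and 5 lower of 31, with 11 not called, median 0.36). The members of that list were chosen with earlier results of these data known, so its excess of rises is a description only. The part of this choice in the excess was not tested. Of the secreted inhibitors, matrix and plasma proteins, 9 were higher without naive replicate 1 and 3 lower without naive replicate 2. The number of cytokines and chemokines called lower was 4 without naive replicate 1 and 5 without naive replicate 2 or 3-week replicate 1.

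Beside Prok2, a chemoattractant and 2 immune ligands rose. Cxcl2, a chemoattractant of neutrophils, increased from 954 and 664 to 3039.6 and 1886 CPM (log2 fold change 1.61, SE 0.21, adjusted p = 0.000189). Osm, oncostatin M of the IL-6 family, rose from 780.1 and 748 to 1574 and 1403 CPM (log2 fold change 0.96, SE 0.12, adjusted p = 0.00016). Tnfsf14, the TNF-family ligand LIGHT, climbed from 16.9 and 22.000 to 42.8 and 42.03 CPM (log2 fold change 1.12, SE 0.15, adjusted p = 0.000233). In Osm and Tnfsf14 the 1-week libraries lay between the naive and 3-week libraries, at 1177 and 959 CPM and 32.3 and 28.1 CPM. Cxcl3 was called near the floor, with 1 and 0 counts in the naive and 17 and 14 in the 3-week libraries. Ccl2, a chemokine of monocytes, rose from 0.395 and 0.245 to 1.78 and 2.997 CPM (log2 fold change 2.86, adjusted p = 0.00665). Tnf rose from 20.8 and 26.6 to 32.2 and 33.3 CPM (log2 fold change 0.47, adjusted p = 0.043). Tnf could no longer be called without naive replicate 1, 1-week replicate 1, 1-week replicate 2, 3-week replicate 1 or 3-week replicate 2 (adjusted p up to 0.33). Ccl2 fell short of the threshold without naive replicate 2 or 3-week replicate 2 (adjusted p up to 0.0593). Tnf also missed the threshold in 5 other fits, among them both with DESeq2.

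The largest fall among cytokines was of the IL-1 antagonist. Il1rn, the IL-1 receptor antagonist, decreased from 189 and 179 to 42.5 and 44.3 CPM (log2 fold change -2.09, SE 0.12, adjusted p = 2.72e-07). Its 1-week level, 112 and 104 CPM, lay between those of the other groups. Ccl3, a macrophage inflammatory protein, fell from 12.96 and 21.4 to 6.1996 and 7.99 CPM (log2 fold change -1.27, adjusted p = 0.00183). Ccl4, its relative, dropped from 44.9 and 65.1 to 28.1 and 27.1 CPM (log2 fold change -0.99, adjusted p = 0.000802). Il15 (log2 fold change -0.98) and Csf1 (-0.91) were lower as well. Il15 lost the call without naive replicate 1 (adjusted p = 0.0541). Csf1 could no longer be called without naive replicate 2 or 3-week replicate 1 (adjusted p up to 0.118). Il1b did not pass the test, with 655 and 859 CPM in the naive and 428 and 919.8 CPM in the 3-week libraries (adjusted p = 0.689). Il1a was not called, at 0.553 and 0.8996 CPM in the naive and 1.08 and 0.692 CPM in the 3-week libraries (adjusted p = 0.798). Tgfb1 was not called, with 3.95 and 3.27 CPM in the naive and 2.71 and 1.77 CPM in the 3-week libraries (adjusted p = 0.184).

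Of the inhibitors, matrix and plasma proteins, a protease and matrix proteins rose. Asprv1, a retroviral-like aspartic protease, rose from 110.0 and 91.8 to 722 and 547 CPM (log2 fold change 2.65, SE 0.15, adjusted p = 2.72e-07). Emilin2, an elastic fibre protein, climbed from 105 and 125 to 342 and 322 CPM (log2 fold change 1.53, SE 0.13, adjusted p = 3.52e-06). Tgfbi, an adhesive matrix protein, rose from 126 and 153 to 433 and 382 CPM (log2 fold change 1.55, SE 0.13, adjusted p = 5.59e-06). F13a1, the clotting factor XIII subunit that monocytes also make, rose from 2.69 and 1.799 to 15.5 and 8.14 CPM (log2 fold change 2.39, SE 0.34, adjusted p = 0.000323). Ecm1, an extracellular matrix protein, increased from 1.03 and 0.245 to 10.5 and 3.61 CPM (log2 fold change 3.44, SE 0.61, adjusted p = 0.00133). The other members called lower, beside Thbs1, were Orm1, C3, Serpina3g and F5. Orm1, an acute phase protein, fell from 34.9 and 44.9 to 11.2 and 16.2 CPM (log2 fold change -1.54, adjusted p = 6.87e-05). C3, the complement component, dropped from 302 and 305 to 157 and 183 CPM (log2 fold change -0.84, adjusted p = 0.000466). Serpina3g, a serine protease inhibitor, fell from 3.56 and 7.52 to 2.17 and 1.46 CPM (log2 fold change -1.60, adjusted p = 0.0135). The clotting factor gene F5 was lower by a small amount (log2 fold change -0.46). Serpina3g fell short of the threshold without naive replicate 2 or 3-week replicate 2 (adjusted p up to 0.167). F5 lost the call without naive replicate 1, naive replicate 2 or 3-week replicate 1 (adjusted p up to 0.182). Hp and Orm1, both acute phase genes, moved in opposite directions. Ecm1 had a log2 fold change of 4.76 without naive replicate 1 and 2.48 without 3-week replicate 1. Ecm1 and Serpina3g had log2 fold changes of 2.77 and -0.97 without naive replicate 2.

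**Figure D3:**
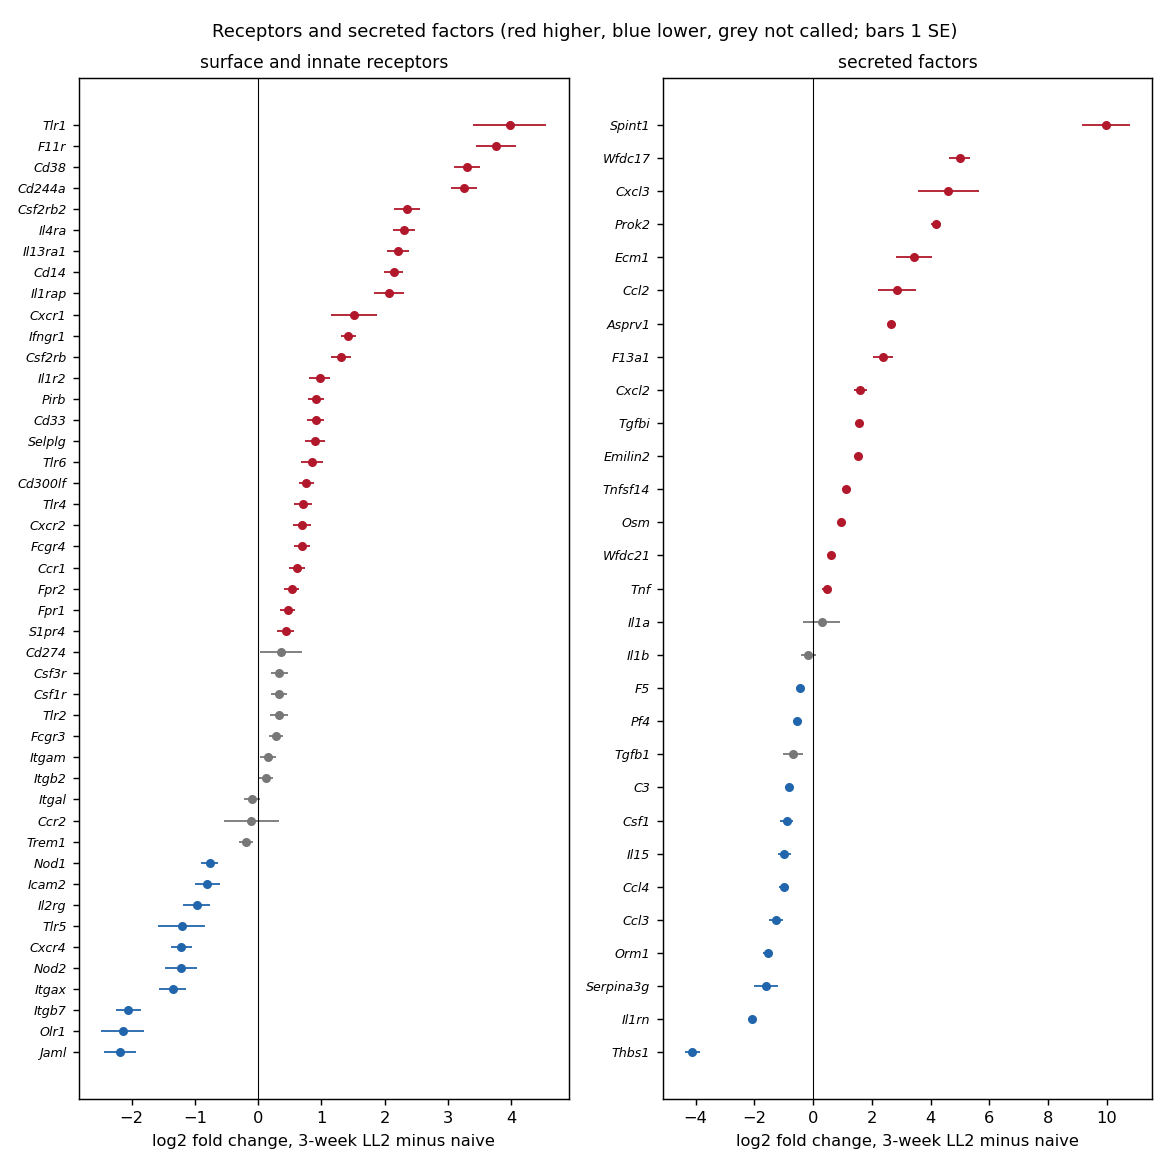
Log2 fold change, 3-week minus naive, of the named receptors (left) and secreted factors (right), with bars of 1 SE from the fit, where red was called higher, blue lower and grey not called. Cd38, Cd244a and the receptor chains Il4ra, Il13ra1, Csf2rb and Csf2rb2 lie between 1.31 and 3.30, while Thbs1 (-4.11), Jaml (-2.19) and Il1rn (-2.09) lie at the other end, and the values of Spint1 and Cxcl3, whose naive counts were 0 or 1, are no bounds.

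Of 17 tested genes linked to suppression of T cells, 6 were higher and 1 lower (median 0.30). The shares over all tested genes were 12.0% higher and 9.42% lower. With library-size scaling the counts of the list became 2 and 2. Apart from Nos2, the largest rise was in leukotriene synthesis. Alox5ap, which feeds 5-lipoxygenase, rose from 496 and 653 to 2065 and 1545 CPM (log2 fold change 1.65, SE 0.16, adjusted p = 1.28e-05). Hif1a, the hypoxia factor, increased from 33.99 and 29.5 to 48.4 and 46.5 CPM (log2 fold change 0.58, adjusted p = 0.00941). Stat3 rose from 715 and 772 to 969 and 1011 CPM (log2 fold change 0.41, adjusted p = 0.0155). The oxidase subunit gene Ncf4 (log2 fold change 0.46) was higher by a small amount. Nt5e, the ectoenzyme CD73 that makes adenosine, dropped from 12.6 and 10.4 to 1.55 and 2.84 CPM (log2 fold change -2.39, SE 0.30, adjusted p = 0.000125). Arg1, the arginase of many suppressor cells, had 0 counts in all 6 libraries. Arg2 did not pass the test, with 65.6 and 73.5 CPM in the naive and 80.6 and 90.8 CPM in the 3-week libraries (adjusted p = 0.109). Ptgs2, cyclooxygenase 2, was not called, at 9.41 and 9.32 CPM in the naive and 1.55 and 6.53 CPM in the 3-week libraries (adjusted p = 0.0706). Hif1a, Stat3 and Ncf4 were not called with library-size scaling. Hif1a could no longer be called without naive replicate 2 (adjusted p = 0.0759). Ncf4 fell short of the threshold without naive replicate 1 or 3-week replicate 1 (adjusted p up to 0.137). Stat3 lost the call without naive replicate 1 or 3-week replicate 2 (adjusted p up to 0.117).

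Feedback inhibitors and targets of STAT3, the factor activated by G-CSF and IL-6, had 8 genes higher and 2 lower of 21 (median 0.35), against 12.0% and 9.42% of all tested genes. There were 4 higher without naive replicate 1. Socs3, which shuts off the G-CSF and IL-6 receptors, increased from 23.6 and 35.5 to 155 and 169 CPM (log2 fold change 2.46, SE 0.17, adjusted p = 1.12e-06). Its 1-week level was 22.6 and 22.7 CPM. Pim1, a survival kinase, rose from 51.3 and 70.9 to 122 and 92.5 CPM (log2 fold change 0.81, adjusted p = 0.00358). Pim1 could no longer be called without naive replicate 1 (adjusted p = 0.0691). Bcl3 climbed from 24.8 and 27.6 to 69.3 and 44.9 CPM (log2 fold change 1.12, adjusted p = 0.00103). Zfp36, which speeds the decay of cytokine mRNA, rose from 536 and 534 to 800.1 and 1008 CPM (log2 fold change 0.76, adjusted p = 0.000797). Zfp36l1, its relative, rose from 37.4 and 34.5 to 137 and 123 CPM (log2 fold change 1.85, adjusted p = 1.40e-06). Socs1, an inhibitor of cytokine and interferon receptors, decreased from 19.1 and 20.3 to 8.602 and 9.45 CPM (log2 fold change -1.13, adjusted p = 0.000722).

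Transcription factors of granulocytes were split, with 8 higher and 7 lower of 23 (median near 0), against 12.0% and 9.42% of all tested genes. Members of the C/EBP family moved in opposite directions in the same libraries. Cebpb, the C/EBP factor of emergency granulopoiesis, rose from 373 and 277 to 928 and 952 CPM (log2 fold change 1.53, SE 0.16, adjusted p = 3.56e-05). Cebpe, required for secondary granules, dropped from 87.4 and 93.2 to 44.3 and 46.6 CPM (log2 fold change -0.99, SE 0.12, adjusted p = 8.49e-05). Cebpa fell from 7.83 and 10.3 to 3.95 and 5.07 CPM (log2 fold change -1.004, adjusted p = 0.00742). Cebpd was not called, with 181 and 218 CPM in the naive and 186 and 211 CPM in the 3-week libraries (adjusted p = 0.973). Id1 increased from 46.4 and 41.3 to 94.5 and 124 CPM (log2 fold change 1.32, adjusted p = 4.62e-05). Klf2 rose from 632 and 784 to 1113 and 1435 CPM (log2 fold change 0.85, adjusted p = 0.00122). The retinoic acid receptor gene Rara (log2 fold change 0.77), the heme sensor gene Bach1 (0.53) and Id2 (0.52) were higher. Myb, a factor of dividing progenitors, dropped from 46.9 and 43.6 to 20.7 and 23.4 CPM (log2 fold change -1.04, adjusted p = 0.000127). Gfi1, a repressor needed for neutrophil development, fell from 29.2 and 32.3 to 13.6 and 18.8 CPM (log2 fold change -0.92, adjusted p = 0.00151). Runx3 (-0.82), Irf4 (-2.96) and Irf8 (-0.58) were lower. Cebpa fell short of the threshold without naive replicate 2 or 3-week replicate 1 (adjusted p up to 0.0721). Id2 lost the call without naive replicate 1 or 3-week replicate 1 (adjusted p up to 0.0757). Irf8 could no longer be called without naive replicate 1 or 3-week replicate 2 (adjusted p up to 0.128). Without naive replicate 1 there were 5 genes of the list higher. Irf4 had a log2 fold change of -3.74 without 3-week replicate 1.

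Genes of the cell cycle that were called were lower in the 3-week libraries, with 0 higher, 15 lower and 16 not called of 31 (median -0.48). The shares over all tested genes were 12.0% higher and 9.42% lower. Top2a, the topoisomerase of dividing cells, fell from 176 and 150.4 to 62.7 and 67.001 CPM (log2 fold change -1.33, SE 0.13, adjusted p = 1.57e-05). Mki67, the antigen Ki-67, decreased from 43.6 and 41.5 to 23.4 and 27.8 CPM (log2 fold change -0.73, SE 0.15, adjusted p = 0.00388). Plk1, a mitotic kinase, fell from 110.0 and 118 to 50.6 and 59.8 CPM (log2 fold change -1.05, adjusted p = 0.00013). Cdk1, the kinase that starts mitosis, dropped from 98.4 and 111 to 54.3 and 54.7 CPM (log2 fold change -0.94, adjusted p = 0.000221). The mitotic genes Birc5 (log2 fold change -0.73), Cdc20 (-0.81) and Bub1b (-0.93) were lower with them. Summed over the list, the level was 1222 and 1156 CPM in the naive libraries and 729.5 and 775 CPM in the 3-week libraries. The number called was 9 without 3-week replicate 1. Myb, Cebpe and Gfi1 moved down in the same libraries, and Mpo, Prtn3, Elane and Ctsg moved up.

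Interferon-stimulated genes were also lower, with 0 higher and 15 lower of 28 (median -0.74), against 12.0% and 9.42% of all tested genes. Rsad2, viperin, which blocks virus replication, fell from 237 and 243 to 39.6 and 67.4 CPM (log2 fold change -2.17, SE 0.21, adjusted p = 1.56e-05). Ifit3, an antiviral adaptor, fell from 32.9 and 50.7 to 5.19 and 15.1 CPM (log2 fold change -2.04, SE 0.34, adjusted p = 0.000914). Isg15, a ubiquitin-like modifier, decreased from 167 and 221 to 75.4 and 98.4 CPM (log2 fold change -1.16, SE 0.16, adjusted p = 0.000236). Usp18, which removes Isg15, fell from 12.9 and 19.4 to 3.797 and 6.53 CPM (log2 fold change -1.64, adjusted p = 0.000554). Cmpk2, a nucleotide kinase beside Rsad2, dropped from 102 and 101 to 33.2 and 55.2 CPM (log2 fold change -1.20, adjusted p = 0.000482). Irf7, an amplifying factor, fell from 42.9 and 54.4 to 21.5 and 27.4 CPM (log2 fold change -0.99, adjusted p = 0.000568). Ifit1, which binds viral RNA, fell from 9.72 and 15.8 to 2.25 and 8.07 CPM (log2 fold change -1.30, adjusted p = 0.0339). In every gene named here both 3-week libraries lay below both naive libraries, and 3-week replicate 1 was the lowest library of each. Without naive replicate 2 or 3-week replicate 1 the number lower was 9. Ifit1 fell short of the threshold without naive replicate 1, naive replicate 2 or 3-week replicate 1 (adjusted p up to 0.256). The 1-week libraries were closer to the naive levels, at 218 and 155 CPM for Rsad2 and 162 and 145 CPM for Isg15. Ifit1 had a log2 fold change of -0.66 without 3-week replicate 1. Neither fit with DESeq2 called Ifit1. Ifit1 and Ifit3 had log2 fold changes of -2.50 and -3.01 without 3-week replicate 2.

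The interferon-stimulated response element, to which the factor activated by type I interferon binds, was searched in the same way as GAAANNGAAA. It was present in 11 of 23 genes of the list with a promoter entry, against 3.46% of all 27025 genes. Of the 12 called genes with an entry 7 held it, and so did Gbp2, Gbp3, Oas3 and Stat2, which were not called. The windows of Isg15 (chr4:156200819-156201068, minus strand), Rsad2 (chr12:26456453-26456702, minus strand) and Ifit3 (chr19:34583279-34583528, plus strand) are printed from RefSeq (GRCm38.p6), as 3 called genes of the list that hold a match, picked after the search. They run in the direction of transcription with matches in capitals, where neighbouring matches overlap in Isg15.
Isg15: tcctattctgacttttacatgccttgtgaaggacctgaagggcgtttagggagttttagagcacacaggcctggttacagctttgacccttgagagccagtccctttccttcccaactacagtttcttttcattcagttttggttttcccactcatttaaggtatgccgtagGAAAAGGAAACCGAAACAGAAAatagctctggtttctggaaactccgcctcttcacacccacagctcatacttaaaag
Rsad2: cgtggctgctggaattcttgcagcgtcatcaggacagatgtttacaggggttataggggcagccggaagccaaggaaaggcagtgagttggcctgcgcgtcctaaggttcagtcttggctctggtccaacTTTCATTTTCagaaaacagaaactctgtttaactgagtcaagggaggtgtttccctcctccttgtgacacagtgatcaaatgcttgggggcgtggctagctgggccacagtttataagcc
Ifit3: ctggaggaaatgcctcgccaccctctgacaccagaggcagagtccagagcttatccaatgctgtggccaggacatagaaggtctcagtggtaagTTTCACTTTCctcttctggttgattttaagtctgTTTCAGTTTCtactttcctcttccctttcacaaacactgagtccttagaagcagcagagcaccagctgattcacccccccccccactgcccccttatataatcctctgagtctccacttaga
Across all functions, 3.52% of the genes called higher held these letters, 5.37% of those called lower and 3.49% of the tested genes.

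Antigen presentation genes were lower, with 8 of 14 lower and 1 higher (median -0.74), against 9.42% and 12.0% of all tested genes. Class II genes fell most. H2-Aa, a class II chain, decreased from 26.8 and 42.4 to 11.1 and 8.298 CPM (log2 fold change -1.83, SE 0.22, adjusted p = 7.89e-05). H2-Ab1, its partner, fell from 16.05 and 23.9 to 7.28 and 4.38 CPM (log2 fold change -1.77, SE 0.24, adjusted p = 0.00024). H2-Eb1 dropped from 25.1 and 33.04 to 7.36 and 5.99 CPM (log2 fold change -2.12, adjusted p = 5.72e-06). Cd74, the invariant chain, fell from 6.88 and 9.81 to 3.56 and 2.77 CPM (log2 fold change -1.40, adjusted p = 0.00286). These genes are made by B cells, dendritic cells and macrophages, and the B lineage sum went from 143 and 241 to 62.3 and 37.9 CPM. The part of those cells in the fall was not tested. Of the class I genes, which neutrophils make themselves, H2-K1 and B2m fell and H2-D1 was not called. H2-K1 fell from 586 and 606 to 262 and 357 CPM (log2 fold change -0.95, adjusted p = 0.000456). B2m, the light chain of class I, decreased from 657 and 858 to 358 and 452 CPM (log2 fold change -0.90, adjusted p = 0.000789). H2-D1 did not pass the test, with 1374 and 1699.7 CPM in the naive and 1519 and 1504 CPM in the 3-week libraries (adjusted p = 0.922). Tap2, a subunit of the peptide transporter, climbed from 105 and 92.7 to 164 and 200.4 CPM (log2 fold change 0.88, adjusted p = 0.000626).

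Genes of glucose uptake and glycolysis were mostly higher, with 11 higher and 1 lower of 19 (median 0.53). The shares over all tested genes were 12.0% higher and 9.42% lower. Slc2a1, the glucose transporter Glut1, rose from 14.5 and 12.1 to 54.7 and 50.5 CPM (log2 fold change 1.98, SE 0.16, adjusted p = 2.96e-06). Ldha, lactate dehydrogenase, rose from 277 and 279 to 499 and 561 CPM (log2 fold change 0.93, SE 0.11, adjusted p = 9.88e-05). Eno1, enolase, increased from 116 and 129 to 222 and 269 CPM (log2 fold change 1.01, adjusted p = 0.000118). Tpi1, triosephosphate isomerase, rose from 41.9 and 44.8 to 78.1 and 96.6 CPM (log2 fold change 1.01, adjusted p = 0.000177). Gapdh climbed from 428 and 466 to 753 and 636 CPM (log2 fold change 0.63, adjusted p = 0.00212). Pkm, pyruvate kinase, rose from 365 and 439 to 656 and 601 CPM (log2 fold change 0.65, adjusted p = 0.00237). Eno1 and Tpi1 were already above the naive libraries at 1 week, at 182 and 187 CPM and 56.3 and 57.1 CPM. Slc2a1 stood at 12.1 and 14.9 CPM and Ldha at 267 and 289 CPM at 1 week, near the naive levels. Hk2, hexokinase 2, fell from 169 and 192 to 109 and 125 CPM (log2 fold change -0.63, adjusted p = 0.0023). The core letters ACGTG of the element bound by HIF-1 stood in the promoter window of 10 of 18 genes of the list, against 25.1% of the tested genes with a promoter entry. They stood in 7 of the 12 called genes, Hk2 among them, and also in Hk3, Pgam1 and Slc16a3, which were not called. The pattern was 1 of 12 searched after the values were seen, and a match does not show binding.

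Regulators of apoptosis had 4 genes higher and 3 lower of 18, against 12.0% higher and 9.42% lower of all tested genes, with a median of 0.07 that became -0.08 with library-size scaling. Mcl1, the survival factor on which neutrophils depend, increased from 921 and 961 to 1632 and 1530.4 CPM (log2 fold change 0.75, SE 0.11, adjusted p = 0.000384). Bcl2l1, which encodes Bcl-xL, rose from 25.1 and 25.4 to 48.4 and 36.3 CPM (log2 fold change 0.75, SE 0.15, adjusted p = 0.00377). Casp4, the caspase that senses lipopolysaccharide, climbed from 6.09 and 8.01 to 15.8 and 15.8 CPM (log2 fold change 1.17, adjusted p = 0.00148). Pmaip1, the pro-apoptotic Noxa, fell from 25.1 and 22.1 to 9.997 and 14.98 CPM (log2 fold change -0.92, adjusted p = 0.00358). Bad was higher (log2 fold change 0.47). The survival gene Bcl2a1b (-0.76), a member of a family of near-identical copies, was lower. Bad lost the call without naive replicate 1 or 3-week replicate 1 (adjusted p up to 0.23). Bcl2a1b could no longer be called without 3-week replicate 1 (adjusted p = 0.0556). Bad was also not called with library-size scaling.

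**Figure D4:**
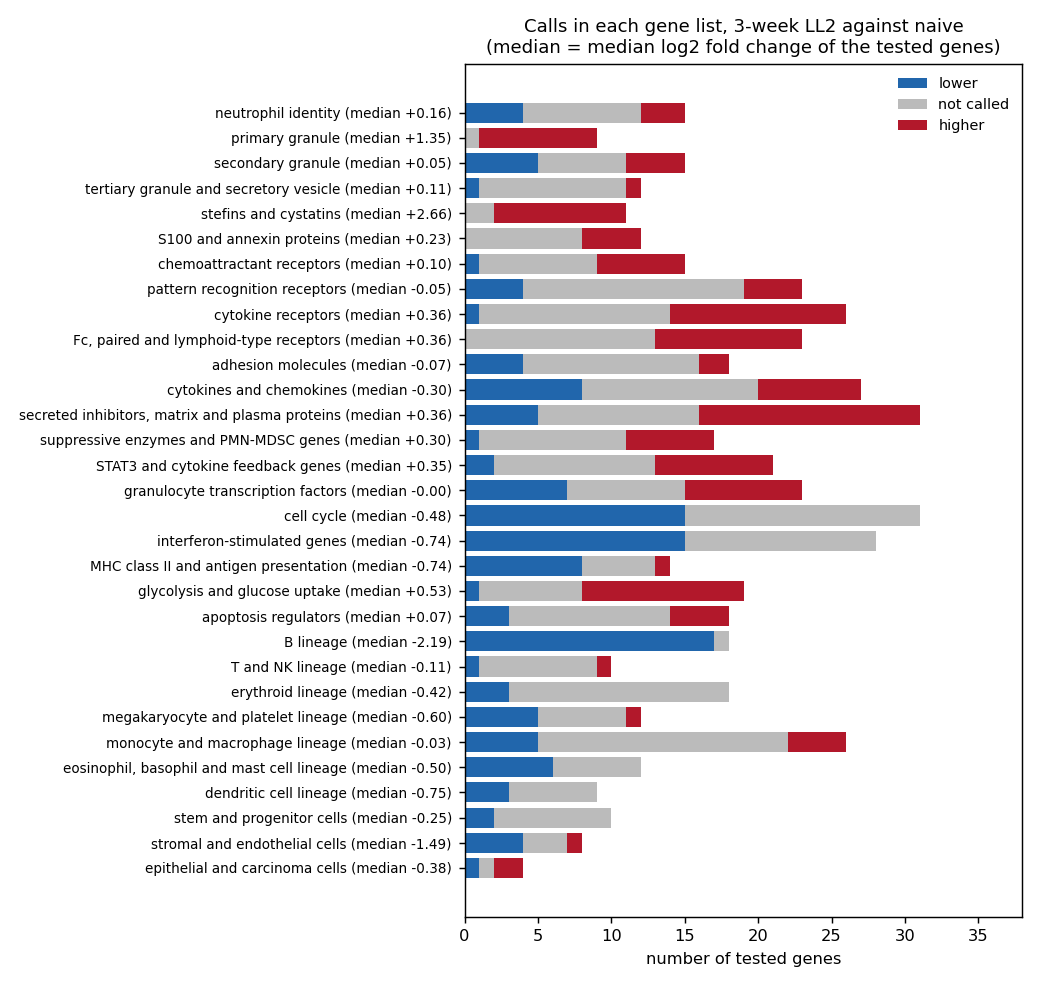
Bars count the tested genes of each of the 31 lists, with those called lower in blue, not called in grey and called higher in red, and the median log2 fold change of the tested genes beside each name. The primary granule (8 of 9), stefin (9 of 11) and glycolysis (11 of 19) lists are mostly red, and the B lineage (17 of 18 blue), interferon (15 of 28) and cell cycle (15 of 31) lists hold no red, against 12.0% higher and 9.42% lower over all tested genes.

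Lineage genes of other cells were mostly lower at 3 weeks where they were called. Of 125 tested, 9 were higher and 47 lower, with a median log2 fold change of -0.53. Over all tested genes 12.0% were higher and 9.42% lower. The B lineage accounted for 17 of the 47, and the median of its 18 tested genes was -2.19. Cd79a, a signalling chain of the B cell receptor, fell from 6.32 and 6.05 to 1.32 and 1.46 CPM (log2 fold change -2.15, SE 0.29, adjusted p = 0.000236). Cd79b, its partner, decreased from 9.57 and 8.096 to 3.33 and 2.38 CPM (log2 fold change -1.63, SE 0.26, adjusted p = 0.000591). Ms4a1, the antigen CD20, fell from 3.87 and 4.58 to 0.775 and 0.768 CPM (log2 fold change -2.44, adjusted p = 0.00064). Pax5, the lineage factor, dropped from 10.5 and 10.9 to 2.87 and 1.84 CPM (log2 fold change -2.18, adjusted p = 0.000144). Rag1, the recombinase of B and T cell precursors, had 31 and 11 counts in the naive libraries and 0 in both 3-week libraries, at least 7.24-fold lower (adjusted p = 0.00308). Ighm, the heavy chain of immunoglobulin M, fell from 6.88 and 42.9 to 8.76 and 2.07 CPM (log2 fold change -2.20, adjusted p = 0.0291), although its libraries overlapped. Ighm fell short of the threshold without naive replicate 2 or 3-week replicate 2 (adjusted p up to 0.736). With DESeq2 on the 4 libraries 11 genes of the list were called lower. Neither fit with DESeq2 called Ighm. In the 1-week libraries the B lineage sum was 154 and 140 CPM, against 143 and 241 CPM in the naive libraries. Ighm had a log2 fold change of -3.02 without naive replicate 1, -0.35 without naive replicate 2, -3.57 without 3-week replicate 1 and -1.50 without 3-week replicate 2.

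T and NK lineage genes had 1 higher and 1 lower of 10 tested, near the 12.0% and 9.42% of all tested genes. Cd3d, a chain of the T cell receptor complex, fell from 11.2 and 10.1 to 2.09 and 3.304 CPM (log2 fold change -1.98, adjusted p = 9.88e-05). Nkg7, a granule protein of cytotoxic cells, increased from 1.98 and 2.45 to 6.1996 and 7.22 CPM (log2 fold change 1.60, adjusted p = 0.0115). Nkg7 lost the call without naive replicate 1 or naive replicate 2 (adjusted p up to 0.114). Cd3e, another chain, had 4 counts or fewer in each of the 4 libraries and was not tested.

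Monocyte and macrophage genes had 4 higher and 5 lower of 26, against 12.0% and 9.42% of all tested genes. Their sum was 2016 and 1975 CPM in the naive libraries and 2439 and 1884 CPM in the 3-week libraries, which overlapped. The defining genes of the lineage were not called. Ly6c2 was not called, with 582 and 733 CPM in the naive and 643 and 702 CPM in the 3-week libraries (adjusted p = 0.895). Ccr2, the receptor for exit from the marrow, did not pass the test, with 2.53 and 2.45 CPM in the naive and 1.47 and 3.15 CPM in the 3-week libraries (adjusted p = 0.897). Csf1r, the M-CSF receptor, was not called, at 48.9 and 56.7 CPM in the naive and 66.96 and 66.4 CPM in the 3-week libraries (adjusted p = 0.0728). Adgre1, which encodes F4/80, was not called, with 13.04 and 12.4 CPM in the naive and 11.5 and 9.76 CPM in the 3-week libraries (adjusted p = 0.316). Among the genes called higher were Lgmn, Ctss and Cd68. Lgmn, a lysosomal protease, increased from 12.7 and 14.1 to 39.4 and 24.1 CPM (log2 fold change 1.24, adjusted p = 0.00219). Ctss, cathepsin S, rose from 72.3 and 78.8 to 127 and 111 CPM (log2 fold change 0.66, adjusted p = 0.0024). Cd68 was higher (log2 fold change 0.55). Cx3cr1, Ace, Ear2 and Crip1 were lower. Cx3cr1, the fractalkine receptor, dropped from 8.301 and 9.41 to 2.87 and 2.997 CPM (log2 fold change -1.59, adjusted p = 0.00197). Ace, angiotensin-converting enzyme, fell from 1.42 and 1.14 to 0.232 and 0.0768 CPM (log2 fold change -2.98, adjusted p = 0.0131). Ear2, a ribonuclease, fell from 55.1 and 54.7 to 19.9 and 11.8 CPM (log2 fold change -1.79, adjusted p = 3.49e-05). Crip1 had a log2 fold change of -1.19. Cd68 could no longer be called without naive replicate 1, 1-week replicate 1, 1-week replicate 2 or 3-week replicate 1 (adjusted p up to 0.224). Ace fell short of the threshold without naive replicate 1 or 3-week replicate 2 (adjusted p up to 0.089). Cd68 was also not called with library-size scaling, and without 3-week replicate 2 the list had 8 higher and 3 lower. Ace had a log2 fold change of -3.91 without 3-week replicate 1.

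Of 12 eosinophil, basophil and mast cell genes 0 were higher, 6 lower and 6 not called. Over all tested genes the shares were 12.0% higher and 9.42% lower. Prss34, a basophil protease, decreased from 15.2 and 14.3 to 2.09 and 5.61 CPM (log2 fold change -1.93, SE 0.29, adjusted p = 0.000412). Its 1-week level was 39.8 and 44.4 CPM, so that the 3-week libraries were the lowest and the 1-week libraries the highest of the series. Mcpt8, another basophil protease, fell from 4.51 and 6.05 to 1.01 and 3.38 CPM (log2 fold change -1.26, adjusted p = 0.032). Cpa3, the mast cell carboxypeptidase, dropped from 1.82 and 1.47 to 0.542 and 0.692 CPM (log2 fold change -1.40, adjusted p = 0.0394). They followed the same order, with 15.5 and 14.4 CPM for Mcpt8 and 4.67 and 5.29 CPM for Cpa3 at 1 week. Hdc, which makes histamine, fell from 1446 and 1228 to 853 and 901 CPM (log2 fold change -0.61, adjusted p = 0.00298). Hdc made up most of the summed level of the list, which was 1540 and 1320 CPM in the naive libraries. That sum was lower at 1 week (975 and 1110 CPM), where Prss34, Mcpt8 and Cpa3 were highest, and 929 and 963 CPM at 3 weeks. Hdc thus did not follow these 3 genes, and which cells made it was not tested. The eosinophil ribonuclease genes Ear1 (log2 fold change -2.75) and Ear6 (-2.11) were lower. Mcpt8 and Ear6 lost the call without naive replicate 1, naive replicate 2 or 3-week replicate 1 (adjusted p up to 0.202). Cpa3 could no longer be called without naive replicate 1, naive replicate 2, 1-week replicate 1, 1-week replicate 2, 3-week replicate 1 or 3-week replicate 2 (adjusted p up to 0.166). Ear1 fell short of the threshold without naive replicate 2 or 3-week replicate 2 (adjusted p up to 0.174). Prg2, major basic protein of eosinophils, did not pass the test, with 12.3 and 14.5 CPM in the naive and 11.3 and 11.99 CPM in the 3-week libraries (adjusted p = 0.449). Epx, eosinophil peroxidase, was at 6 counts or fewer in each of the 4 libraries. Ear1 had a log2 fold change of -3.38 without naive replicate 1 and -1.72 without naive replicate 2. Ear6 and Mcpt8 had log2 fold changes of -1.49 and -0.64 without 3-week replicate 1. Neither fit with DESeq2 called Ear6 or Cpa3. Ear6, Mcpt8 and Prss34 had log2 fold changes of -3.22, -2.38 and -2.81 without 3-week replicate 2.

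Of 9 dendritic cell genes 3 (Spib, Itgax and Bst2) were lower and 0 higher, against 9.42% and 12.0% of all tested genes. Bst2, tetherin, decreased from 1.74 and 2.45 to 0.387 and 0.538 CPM (log2 fold change -2.16, adjusted p = 0.0183). Bst2 lost the call without naive replicate 2, 3-week replicate 1 or 3-week replicate 2 (adjusted p up to 0.0986). Siglech, a receptor of plasmacytoid cells, was not called, with 6.56 and 4.74 CPM in the naive and 4.65 and 3.92 CPM in the 3-week libraries (adjusted p = 0.378).

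Erythroid genes depended on single libraries. Hba-a1, an alpha globin gene, did not pass the test, with 123 and 119.6 CPM in the naive and 115 and 48.1 CPM in the 3-week libraries (adjusted p = 0.16). Hba-a2, its copy, was not called, at 636 and 571 CPM in the naive and 586 and 255 CPM in the 3-week libraries (adjusted p = 0.187). Hbb-bs, a beta globin gene, was not called, with 315 and 283 CPM in the naive and 404 and 173 CPM in the 3-week libraries (adjusted p = 0.917). Hbb-bt, its copy, did not pass the test, with 213 and 186 CPM in the naive and 187 and 75.7 CPM in the 3-week libraries (adjusted p = 0.143). In each of the 4, 3-week replicate 2 was the lowest library. Hbb-bs was called lower without 3-week replicate 1 (log2 fold change -0.79, adjusted p = 0.00278) and higher without 3-week replicate 2 (0.43, adjusted p = 0.0498). Of 18 erythroid genes 3 were lower and 0 higher, against 9.42% and 12.0% of all tested genes. Tal1, an erythroid factor, fell from 6.96 and 5.398 to 1.78 and 2.61 CPM (log2 fold change -1.49, adjusted p = 0.00508). Klf1 (log2 fold change -1.69) and the carbonic anhydrase gene Car2 (-1.05) were lower too. Tal1 could no longer be called without naive replicate 1 (adjusted p = 0.0523). Klf1 and Car2 fell short of the threshold without naive replicate 1 or 3-week replicate 2 (adjusted p up to 0.154). The number lower was 9 without 3-week replicate 1, 1 without 3-week replicate 2 and 0 without naive replicate 1. Klf1 and Car2 had log2 fold changes of -2.69 and -1.69 without 3-week replicate 1. Klf1 had a log2 fold change of -1.10 without 3-week replicate 2. Neither fit with DESeq2 called Car2.

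Megakaryocyte and platelet genes had 1 higher and 5 lower of 12, against 12.0% and 9.42% of all tested genes. Ppbp, a platelet chemokine, dropped from 46.7 and 40.5 to 23.3 and 28.8 CPM (log2 fold change -0.74, adjusted p = 0.00399). Pf4, platelet factor 4, fell from 26.5 and 21.8 to 16.4 and 16.98 CPM (log2 fold change -0.53, adjusted p = 0.0246). The integrin chain genes Itga2b (log2 fold change -0.79) and Itgb3 (-0.73) and Treml1 (-0.94) were lower. Selp, P-selectin, rose from 6.403 and 5.72 to 9.84 and 12.2 CPM (log2 fold change 0.86, adjusted p = 0.0152). Pf4 lost the call without naive replicate 1, 3-week replicate 1 or 3-week replicate 2 (adjusted p up to 0.15). Selp could no longer be called without naive replicate 1, naive replicate 2 or 3-week replicate 2 (adjusted p up to 0.121).

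Of the stem and progenitor genes, Kit and Cd34 were not called. Kit, the stem cell factor receptor, was not called, with 6.96 and 4.99 CPM in the naive and 10.8 and 8.84 CPM in the 3-week libraries (adjusted p = 0.0537). Cd34 did not pass the test, with 1.11 and 0.981 CPM in the naive and 1.08 and 0.999 CPM in the 3-week libraries (adjusted p = 0.996). Of 10 stem and progenitor genes 2 were lower and 0 higher, near the 9.42% and 12.0% of all tested genes. Sox4 dropped from 11.1 and 11.5 to 5.73 and 5.22 CPM (log2 fold change -1.05, adjusted p = 0.00259). Erg fell from 16.8 and 13.2 to 6.28 and 8.53 CPM (log2 fold change -1.02, adjusted p = 0.005). Erg fell short of the threshold without naive replicate 1 (adjusted p = 0.0637). Stromal and endothelial genes had 1 higher and 4 lower of 8 tested, Acta2 among them. Col1a1, a chain of type I collagen, fell from 6.25 and 5.07 to 1.16 and 1.23 CPM (log2 fold change -2.23, adjusted p = 0.00104). Cxcl12, the ligand of Cxcr4, decreased from 8.54 and 8.18 to 2.48 and 1.31 CPM (log2 fold change -2.14, adjusted p = 0.000225). Col1a2 was lower (log2 fold change -2.57). Col1a2 lost the call without naive replicate 1, 3-week replicate 1 or 3-week replicate 2 (adjusted p up to 0.145). Lepr, the leptin receptor of stromal cells, rose from 33.99 and 44.2 to 72.8 and 61.5 CPM (log2 fold change 0.78, adjusted p = 0.00207). The endothelial gene Cdh5 had 4 counts or fewer in each of the 4 libraries. Col1a2 had a log2 fold change of -1.89 without naive replicate 1.

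Of 13 markers of epithelium and carcinoma 4 had enough counts to be tested. Krt19 had 0 counts in all 4 libraries, Epcam had 0.0791 and 0.654 CPM in the naive libraries and 0 and 0.0768 CPM in the 3-week libraries, and 5 of the 13 markers had no count in any of the 4. The 3 that were called did not move together. Cdh1, E-cadherin, climbed from 3.399 and 3.52 to 16.97 and 5.84 CPM (log2 fold change 1.72, adjusted p = 0.0155). Muc1 was higher, with 1 and 0 counts in the naive and 13 and 13 in the 3-week libraries. Krt7 fell from 1.03 and 1.64 to 0.155 and 0.307 CPM (log2 fold change -2.47, adjusted p = 0.0177). Cdh1 could no longer be called without naive replicate 1, naive replicate 2 or 3-week replicate 1 (adjusted p up to 0.287). Muc1 fell short of the threshold without naive replicate 1, naive replicate 2, 3-week replicate 1 or 3-week replicate 2 (adjusted p up to 0.0998). Krt7 lost the call without naive replicate 2 or 3-week replicate 1 (adjusted p up to 0.106). Cdh1 had a log2 fold change of 0.75 without 3-week replicate 1. Cdh1 was also not called with DESeq2 on all 6 libraries, where 0 genes of the list were called higher.

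**Figure D5:**
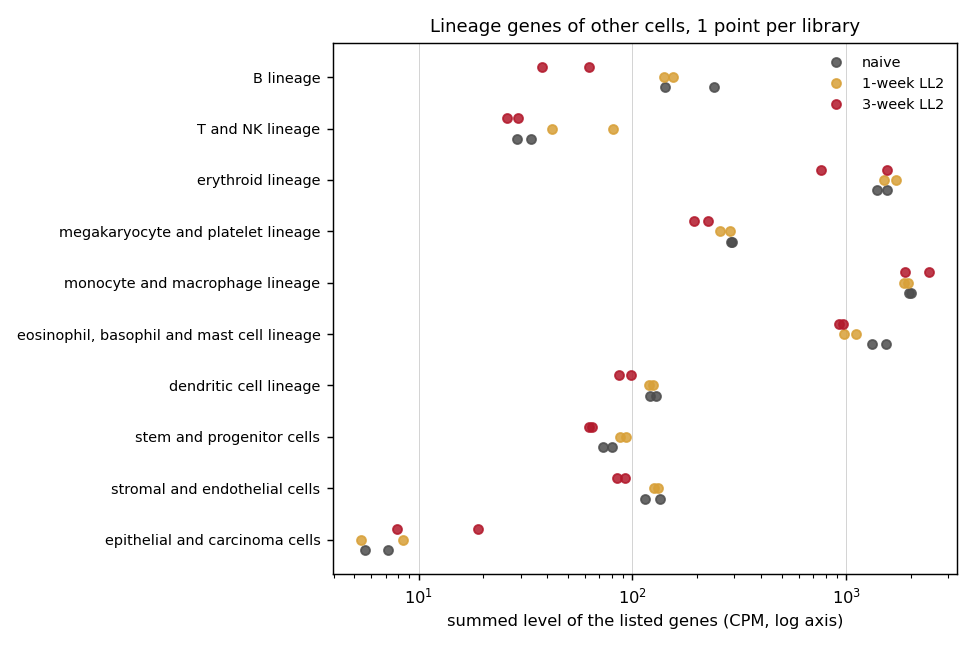
Summed level in CPM on a log axis of the listed genes of each other lineage, with 1 point for each library of naive (grey), 1-week (gold) and 3-week (red) mice. The eosinophil, basophil and mast cell sum is mostly Hdc. The B lineage sum lies at 62.3 and 37.9 CPM in the 3-week libraries and between 140 and 241 CPM in the other 4, the lower erythroid sum of the 3-week libraries (758 CPM) lies apart from the other (1545 CPM), and the monocyte sums overlap.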

How the data were processed

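Ly6G+ bone marrow cells were sequenced from naive mice, and 1 or 3 weeks after LL2 injection, with 2 libraries per group. Per the labels, reads were 75 bases long and were aligned with Bowtie2 and RSEM 1.2.31 to mm10. The authors deposited RSEM expected counts per gene, which came as whole numbers and were used as such. RSEM shares reads out between near-identical copies, so single members of such families are uncertain. Whether strand was used in counting is not given in the sources used here, so overlapping and antisense genes are uncertain as well. The legend of the study gives more samples per group than the labels do, and the labels were followed.

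Genes passing filterByExpr were fitted in R 4.3.3 with edgeR 4.0.16 (TMM scaling, quasi-likelihood test, all 6 libraries, Benjamini-Hochberg adjustment over all tested genes), and genes were called at an adjusted p under 0.05. SE were taken from the fit. TMM factors lay between 0.913 and 1.07, and the 10 genes with the most counts took 36.7% to 38.7% of each library. Log-scale correlations across genes were 0.977 within naive, 0.980 within 3-week libraries and 0.948 to 0.954 between them. Gene identifiers were matched to a GENCODE annotation of GRCm38, and 31 lists held 592 symbols, of which 586 matched and 504 were tested. The members and lists were chosen with earlier results of these data known. Named genes are the 25 largest called rises and falls among protein-coding genes with separate libraries and at least 5 CPM in the higher group, the 10 called genes with the smallest p in each direction, the defining genes of each list, and up to 6 called genes per list and direction by p. Some genes that this rule names are not reported here. Lists are described by counts and medians, without a test of the list. A gene with 0 counts in a group was given a bound from 3 counts per library.

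Promoter windows of 250 bases upstream were searched on both strands for 12 patterns in 27025 genes. These were GAGGAAGT for PU.1, GAAANNGAAA for interferon factors, TTCNNNGAA or, stricter, TTCCNGGAA for STAT factors and TTGCNNAA, TTGCGCAA or TTNNGNAA for C/EBP. The others were ACGTG for HIF-1, GGGANNNTCC for NF-kappaB, the cell cycle element as TTTGAA or in a looser form with TTNGAA, and TTTGGCGC for E2F. Alternatives were DESeq2 1.42.0, the 4 compared libraries alone, other scalings, filters and thresholds, protein-coding genes, a replicate block, and leaving out single libraries. The fitting code was tested on simulated data.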

Additional observations from a re-analysis of the deposited data

How the results depend on the processing

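The count of 2626 genes lay between 1772 (DESeq2, 4 libraries) and 2944 (no filter) under the other models, scalings and filters. DESeq2 on the 4 libraries found 960 genes higher and 812 lower, and library-size scaling 890 and 1675. At an adjusted p under 0.01 there were 1339, with 785 higher and 554 lower, and at over 5-fold 208, with 104 in each direction. Leaving out single libraries, where the lone library is assumed to vary like the other groups, gave 1372 to 2339 calls, 728 to 1205 higher and 644 to 1134 lower. Among surface receptors 21 to 32 were then higher, among secreted factors 8 to 13 lower and among lineage genes of other cells 4 to 12 higher, and library-size scaling gave 16 receptors lower. The replicate block gave 2559 calls, 1445 higher and 1114 lower, but the numbers mark different mice and same-numbered libraries did not deviate together (r = 0.0364), so they do not pair the samples. Of 232 named called genes 176 kept their call under every alternative fit that gave them an adjusted p. None of the 232 changed direction in these fits. DESeq2 on the 4 libraries gave an adjusted p to 227 of them. The stricter thresholds were applied to the counts of all genes and not to the named genes 1 by 1. DESeq2 on all 6 libraries gave an adjusted p to 230 of the named genes. Of these, Car2, Cdh1, Cpa3, Ear6, Ifit1, Ighm, Tnf and Ugt1a5 lost the call. The rest, Muc1 among them, had no adjusted p there and so no call. The cause of the lost calls was not tested.

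Genes that were not called changed sign. With library-size scaling the log2 fold change was -0.028 for Itgb2, -0.093 for Lcn2, -0.11 for Ly6c2 and -0.035 for S100a9, and on the 4 libraries -0.0044 (DESeq2) and -0.0032 (edgeR) for Ly6c2. With single libraries left out it ranged from -0.76 to 0.34 for Ccr2, -0.14 to 0.74 for Cd274, -0.087 to 0.054 for Cd34, -0.17 to 0.13 for Cebpd, -0.20 to 0.14 for H2-D1, -0.067 to 0.67 for Il1a, -0.82 to 0.28 for Il1b, -0.21 to 0.019 for Itgal, -0.18 to 0.28 for Lcn2, -0.16 to 0.21 for Ly6c2, -0.034 to 1.09 for Ly6g and -0.033 to 0.23 for S100a9. For Hbb-bs it ranged from -0.79 to 0.43.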

Other observations

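Genes of the translation machinery and small nuclear RNAs also moved, as families grouped after their values were seen. Of 94 protein-coding genes of the cytosolic ribosome 52 were higher and 1 lower, with a median log2 fold change of 0.43, and their summed level went from 18290 and 20120 CPM in the naive libraries to 25900 and 27010 CPM in the 3-week libraries. The 1-week libraries, at 22480 and 23060 CPM, lay between them. With library-size scaling 33 were higher and 2 lower (median 0.29), with DESeq2 size factors 47 and 2, and without naive replicate 1 there were 29 higher. Pseudogenes of ribosomal proteins, which share reads with these genes, had 17 higher and 1 lower of 49.

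Genes annotated as small nuclear RNA, a class that includes the RNAs of splicing, went the other way. Of 40 tested 0 were higher and 11 lower (median log2 fold change -0.81), against 12.0% and 9.42% of all tested genes. Their summed level was 575 and 517 CPM in the naive, 424 and 514 CPM in the 1-week and 273 and 292 CPM in the 3-week libraries. The number lower was 7 without naive replicate 1 and 6 without naive replicate 2, and the part of RNA selection in library preparation was not tested. These genes have near-identical copies, so that the family sum is more certain than its members.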
